A study of Schizosaccharomyces pombe with 36 samples.

Results

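The inverted *RTS1* pair consists of 2 Pu-seq libraries of fission yeast, of 36 in the series, made from strains in which a stretch of chromosome 2 lies between a pair of *RTS1* fork barriers in opposite orientation. The libraries were chosen by their titles, 1 from a Pol δ mutant and 1 from a Pol ε mutant, and the comparison is with the 2 libraries of the strains that carry a single active *RTS1* at the left of those sites. Pu-seq (polymerase usage sequencing) maps where each polymerase worked, using mutant polymerases that put extra ribonucleotides into DNA. Alkali cuts the DNA at these, and the cut ends were counted per 300-bp bin and strand. Both inverted strains are listed with the left construct and a second *RTS1* at chromosome 2, *rnh201-RED*, *rtf1* under the *adh1* promoter (adh-*rtf1*+), no native *RTS1* and *pku70*+. The single-barrier strains are listed with the same left construct, *rnh201-RED*, no native *RTS1* and *pku70*+ too, but with *rtf1* under its own promoter, the *smt0* allele and a 10xrRFB array, 10 copies of a ribosomal fork barrier that the inverted strains do not carry. All 4 strains share *ade6-704*, *leu1-32* and *ura4-D18*. The inverted pair is listed with *cdc20-M630F* (Pol ε) and *cdc6-L591M* (Pol δ), and the single-barrier pair with *cdc20-M630F* and *cdc6-L591G*. Each polymerase and strain has 1 library, so values carry no replicate error, no p-values are given, and every 95% interval covers counting error only. The second *RTS1*, the *rtf1* promoter, the array, the *smt0* allele and the Pol δ allele all differ between the pairs and cannot be told apart from one comparison. For this reason values are also set beside 5 further pairs that have a single active *RTS1* at the left site. One of them is *rnh201-d* with adh-*rtf1*+ and the array, and one is *rnh201-d* with *RTS1* in another construct, without the array and with no deletion of the native *RTS1* listed. The others carry the array and are *rnh201-RED* *pku70-d*, *rnh201-d*, and *rnh201-d* *pku70-d*. Barrier-off pairs, which lack *rtf1*, serve for some comparisons.

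In a canonical replication fork (RF), the leading strand is the work of Pol ε and the lagging strand that of Pol δ. An RF that moves from left to right therefore leaves Pol ε in the Watson strand and Pol δ in the Crick strand, and an RF that moves from right to left leaves the reverse. *RTS1*, taken from the mating type region, stops forks from one side only and only when the protein Rtf1 is bound to it. An arrested fork can be restarted by homologous recombination, and such forks are known in this yeast for the use of Pol δ on both strands. The inverted construct addresses which polymerase makes each strand when both ends of a stretch are closed to incoming canonical forks, as far as its design states.

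The barrier sequence itself was traced on the ASM294v3 reference (RefSeq). The primers of the second copy match a native fragment of 854 bp at chr2:2113045-2113898, and their tails place the right copy in reverse orientation to the native fragment. The longest run of letters that occurs at least 4 times in this fragment is CATACCCTTT, present 4 times on its plus strand and 0 times on its minus strand. The 4 copies are printed because all of them lie on the same strand of the fragment. Each run is 30 bases, 5′ to 3′ on the plus strand, with the motif in capitals.
Repeat at chr2:2113297-2113326: acgtttctgcCATACCCTTTttaagtggga
Repeat at chr2:2113381-2113410: aggtaagtgtCATACCCTTTccaagtggga
Repeat at chr2:2113503-2113532: ggaaaagtgtCATACCCTTTctaagtgggg
Repeat at chr2:2113574-2113603: agtaaaatgcCATACCCTTTccaaatgggg
The motif was searched on both strands. It occurs in 36 of 14719 consecutive 854-bp windows of the 3 chromosomes (0.245%), 1 of which holds it 4 times on 1 strand, and that window overlaps *RTS1*. The run was picked for its 4 occurrences in *RTS1*, so this last count was fixed by the choice. A match is a run of letters and was not tested as a binding site.

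The left copy lies after position 851805 of chromosome 2, in the intergenic DNA between *clr6*, a histone deacetylase gene whose 5′ end is annotated 329 bp to the left, and *spo9*, whose annotated 3′ end is 2 bp to the right. Both genes are on the minus strand. The right copy lies after position 876159, in intergenic DNA 96 bp from *pwp2*, which codes for a protein of ribosome biogenesis, and 79 bp from *wdr83*, a WD repeat protein gene. The bases at the junctions are shown on the plus strand because all distances below are counted from them, with the base on each side of the insertion in capitals.
Left site, chr2:851791-851820: ttagtttcccaagtAGagtaatgtatcaac
Right site, chr2:876145-876174: gttttaattggattTTaataaaaaaatttt
On the reference the 2 sites are 24354 bp apart, and the site of the array in the single-barrier strains lies 10650 bp from the left one. In the bin coordinates of the files the left construct adds about 2790 bp in the inverted strains and 2780 bp in the single-barrier strains. The right copy adds 854 bp. Bins were mapped back to the reference, and 600 bp were left out beside each insertion and beside the array site.

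The inverted Pol δ library held 13723130 counts and the inverted Pol ε library 15516205, against 13457579 and 3304406 in the single-barrier pair, whose Pol ε library was the shallowest of the 36. Titles and listed genotypes name opposite polymerases for the inverted pair, and the titles were followed. The strand bias of the library titled Pol δ, over 4136 windows of 3000 bp outside the locus, correlated at a median of 0.91 with 7 Pol δ libraries and -0.69 with their 7 Pol ε partners. The library titled Pol ε correlated at a median of -0.83 with the Pol δ libraries and 0.97 with the Pol ε libraries. These windows share the origins of one genome and their base composition. Counts over *rtf1* stood at 0.773 and 0.647 of the flanking level in the inverted pair and at 1.02 and 1.08 in the single-barrier pair, against 0.0984 and 0.0293 in the *rnh201-RED* pair without *rtf1*. Counts over *rnh201*, which is altered and not deleted in *rnh201-RED*, were between 0.826 and 0.985 of the flanking level in these 4 libraries, and those over *pku70* between 0.875 and 1.0. The usable range of the readout was narrower in the inverted pair: 95% of its 3000-bp windows had a Pol ε usage under 72.1% on Watson and 71.6% on Crick, against 84.0% and 83.3% in the single-barrier pair, and 5% lay under 16.4% and 16.7%, against 14.0% on both strands. Here Pol ε usage is the Pol ε count as a share of both polymerases' counts on that strand, after each was scaled by its library total.

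Between the copies the inverted pair used little Pol ε on either strand, and the difference from the single-barrier pair was much greater on the Crick strand. Over 73 bins (21.9 kb), the Crick strand had 25854 Pol δ and 2910 Pol ε counts in the inverted pair, or a Pol ε usage of 9.05% (95% interval 8.74 to 9.37). The single-barrier pair had 8326 and 1946 counts there, or a usage of 48.8% (48 to 50). The difference was -39.7 percentage points (-41.0 to -38.4). On the Watson strand, 25473 Pol δ and 5059 Pol ε counts of the inverted pair gave a usage of 14.9% (14.6 to 15.3), and 18415 and 1419 counts of the single-barrier pair 23.9% (22.9 to 24.9), a difference of -8.95 points (-10.0 to -7.89).

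The 6 single-barrier pairs give a view of how far such values spread among strains, although they differ in genotype and are not replicates. On the Crick strand the inverted value of 9.05% lay far from all of them, which ranged from 47.8% to 60.0% with a median of 53.3%. On Watson the inverted value of 14.9% was also the lowest, but the *rnh201-d* adh-*rtf1*+ pair came close to it at 16.7%, and the other 5 single-barrier pairs lay between 23.9% and 32.9%. The highest value on each strand was that of the *rnh201-d* *pku70-d* pair. Against the adh-*rtf1*+ pair, the Watson difference was -1.79 points (-2.33 to -1.26) and the Crick difference -38.7 (-39.4 to -38.1). Little of the Watson difference was left against this pair, while the Crick difference kept its size. The adh-*rtf1*+ pair shares the *rtf1* promoter with the inverted pair but differs from it in *rnh201*, the array, the Pol δ allele and the second *RTS1*. The part of each was not tested.

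**Figure D1:**
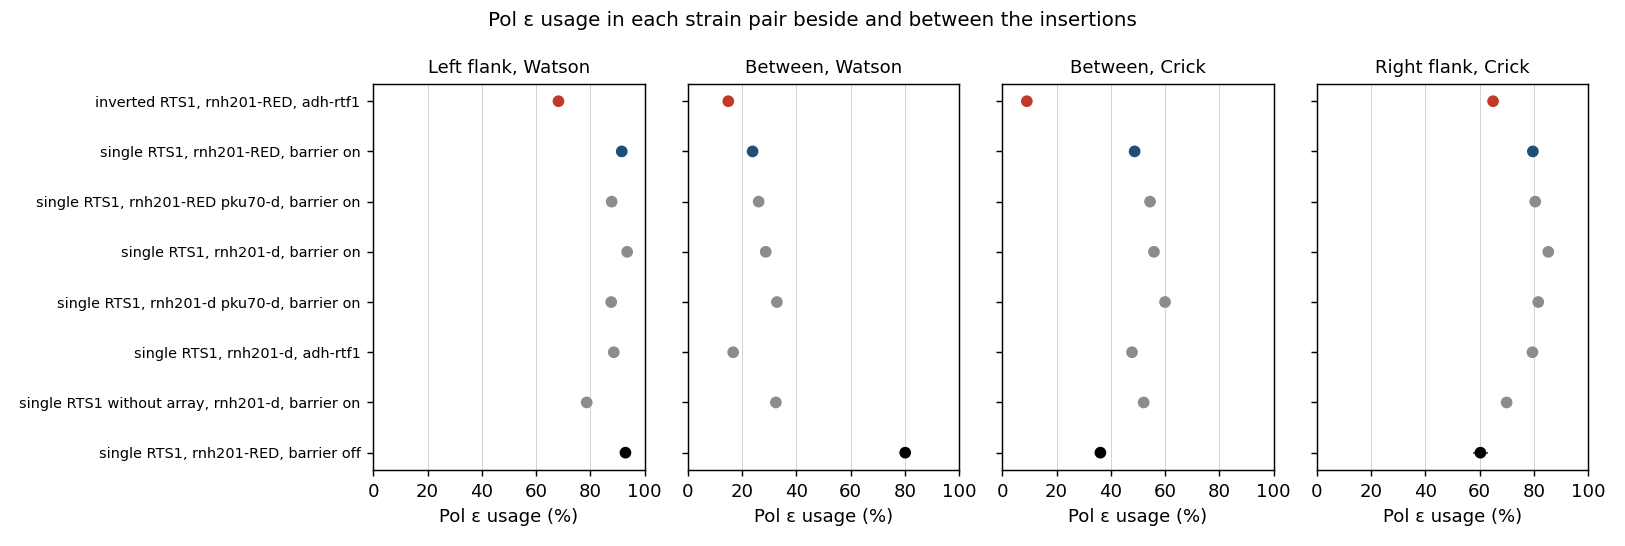
Pol ε usage (%, horizontal axis) in 8 strain pairs (rows), with the inverted pair in the top row (red), the single-RTS1 *rnh201-RED* barrier-on pair under it (blue), the other single-RTS1 pairs in grey and the barrier-off pair in black. Panels from left to right show Watson in the 2400-bp left flank, Watson and Crick between the copies, and Crick in the 2400-bp right flank, and bars are 95% counting intervals. Between the copies on Crick the inverted pair sits at 9.05%, away from the 47.8% to 60.0% of the 6 active single-RTS1 pairs.

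The same difference was taken in 566 windows of 21.9 kb across the rest of the genome. On the Crick strand these differences ranged from -12.5 to 9.16 points, so 0 windows were as low as the locus. On Watson 9 of the 566 windows differed by as much in the same direction, with a central 95% range of -7.90 to 6.17 points. Against the adh-*rtf1*+ pair, 218 of 566 windows were as low as the locus on the Watson strand and 0 on the Crick strand.

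Averaged over both strands, which a canonical fork of either direction leaves near an even division, Pol δ usage between the copies was 88.0% (87.8 to 88.2) in the inverted pair and 63.7% (62.9 to 64.5) in the single-barrier pair. The difference was 24.3 points (23.5 to 25.2), whereas the 566 genome windows lay between -8.21 and 11.2 points. Across the 6 single-barrier pairs this average ranged from 53.6% to 67.7%. In the *rnh201-RED* barrier-off pair it was 41.9% (41.3 to 42.5), so without an active barrier this stretch lay below an even division. In the 2400-bp flanks the average was also higher in the inverted pair, at 63.9% (left) and 60.0% (right). The single-barrier pair had 51.9% and 46.9% there, and the 6 single-barrier pairs 50.6% to 53.1% and 43.1% to 48.5%. A higher average was thus not limited to the stretch between the copies.

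Each pair was also set in its own genome, which does not depend on the narrower range of the inverted libraries. Of the 3000-bp windows of the inverted pair, 3.58% had a lower Watson usage than the stretch between the copies and 0.645% a lower Crick usage. In the single-barrier pair 15.3% of windows were lower on Watson and 45.4% on Crick. In the adh-*rtf1*+ single-barrier pair 6.04% of windows were lower on Watson and 42.6% on Crick, and in part 1 of the stretch, the end beside the left copy, its Watson share of 2.53% was below the 2.82% of the inverted pair. A low Watson rank was thus shared with the adh-*rtf1*+ pair, and a low Crick rank with neither of these single-barrier pairs.

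When 3000-bp windows were compared one by one, 5 of the 8 windows wholly between the copies were lower in the inverted pair by 20 points or more on the Crick strand, against a background of 0.883% of windows lower past that threshold over the genome (37 of 4189). On Watson 0 of 8 passed it (background 0.812%, 34 of 4189), and their differences ran from -11.4 to -6.79 points. On either flank within the 800 to 930 kb region, 0 of 17 windows to the left and 0 of 17 to the right passed the threshold on either strand. These fixed windows do not isolate the DNA beside the copies. The 2400 bp left of the left copy differed by -23.3 points on Watson, whereas the lowest of the 17 left windows differed by -14.6. Taken over both strands and directions, 74 of 8378 windows of the genome (0.883%) passed it.

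**Figure D2:**
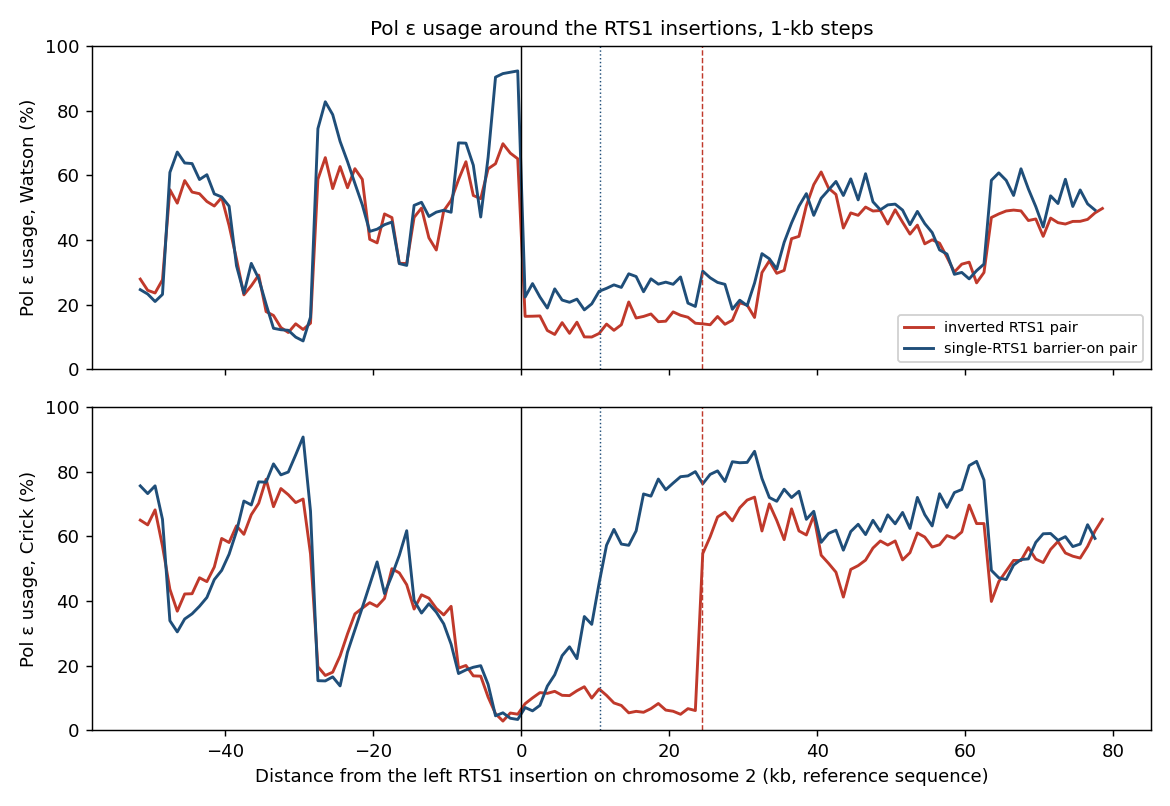
Pol ε usage (%, vertical axis) on Watson (top) and Crick (bottom) in 1-kb steps, against the distance in kb from the left insertion on the reference sequence, in the inverted pair (red) and the single-RTS1 *rnh201-RED* barrier-on pair (blue). The solid line marks the left insertion, the dotted line the array of the single-barrier strains and the dashed line the right copy, 24.4 kb from the left one. Crick usage stays low up to the dashed line in the inverted pair and climbs between the solid and dashed lines in the single-barrier pair.

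The stretch was next cut into 3 equal parts, counted from the left copy. On the Crick strand the inverted pair had a Pol ε usage of 11.4% in part 1, 8.28% in part 2 and 6.22% in part 3. The single-barrier pair had 15.0%, 52.6% and 76.2% in the same parts. Crick usage therefore fell away from the left copy in the inverted pair, the difference of part 3 from part 1 being -5.21 points (-5.94 to -4.47), where it was 61.2 points (58.8 to 63.4) in the single-barrier pair. The differences between the pairs were -3.59 points (-5.53 to -1.76) in part 1, -44.3 (-46.7 to -41.9) in part 2 and -70.0 (-71.4 to -68.5) in part 3. All 6 single-barrier pairs were above the inverted pair in each part on this strand, at 15.0% to 39.7%, 51.8% to 62.2% and 64.9% to 78.7%.

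Watson usage of the inverted pair was nearly level, at 14.0%, 13.8% and 16.1% in the 3 parts, against 22.5%, 24.1% and 25.2% in the single-barrier pair. Part 3 was 2.08 points higher than part 1 (1.10 to 3.05) in the inverted pair and 2.72 points higher (0.358 to 5.09) in the single-barrier pair. In part 1 the adh-*rtf1*+ single-barrier pair was the only one of the 6 below the inverted pair, at 13.2%, and the difference between these 2 pairs was 0.84 points with an interval that includes 0 (-0.12 to 1.82). In parts 2 and 3 it stood above the inverted pair, at 17.5% and 19.6%.

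The array site lies within part 2 and marks where the single-barrier strains carry a second obstacle. In the inverted strains, which lack it, Crick usage was 12.6% in the 2400 bp to its left and 8.84% in the 2400 bp to its right. In the single-barrier pair it was 34.2% and 59.4%. Most of the Crick difference thus lay beyond the array site, although it was already -21.6 points (-25.8 to -17.5) before it.

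Counts of each polymerase show which library moved. Between the copies the Crick strand had 86.0 Pol δ CPM per kb (counts scaled to a common library total) in the inverted pair and 28.3 in the single-barrier pair, a log2 ratio of 1.61 (1.57 to 1.64). It had 8.56 Pol ε CPM per kb in the inverted pair, against 26.9, a log2 ratio of -1.65 (-1.73 to -1.57). So both libraries moved by a like factor in opposite directions. Of the 566 genome windows, 0 had a Crick Pol δ ratio as high or a Crick Pol ε ratio as low, the extremes being 1.09 and -0.80 on the log2 scale.

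Watson Pol δ stood at 84.8 CPM per kb in the inverted pair and 62.5 in the single-barrier pair (log2 ratio 0.44, 0.41 to 0.47), which 29 of 566 genome windows equalled or exceeded. Pol ε stood at 14.9 and 19.6 (log2 ratio -0.40, -0.48 to -0.31), with 4 of 566 windows as low. Against the adh-*rtf1*+ pair the Watson Pol ε ratio had the other sign, at 0.19 (0.13 to 0.24). In absolute density, Pol δ of the inverted pair was nearly equal on the 2 strands, at 84.8 on Watson and 86.0 on Crick.

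Within the stretch the 2 strands ran in opposite directions in the inverted Pol δ library. On Crick its density was 106.0 CPM per kb in part 1, 80.9 in part 2 and 71.2 in part 3. On Watson it was 56.8, 83.3 and 112.9 in the same parts. Each strand was thus densest beside one copy, Crick at the left and Watson at the right. In the single-barrier pair Pol δ fell on Crick, at 47.0, 23.5 and 14.2, and changed little on Watson, at 67.1, 61.2 and 59.1. As a log2 ratio of the inverted over the single-barrier pair, Pol δ changed on Watson by -0.24 (-0.29 to -0.19), 0.44 (0.39 to 0.50) and 0.93 (0.89 to 0.98), and on Crick by 1.17 (1.12 to 1.22), 1.78 (1.71 to 1.85) and 2.33 (2.25 to 2.41). The ratio increased towards the right copy on both strands, and on Watson it was below 0 in part 1.

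The Pol ε library of the inverted pair showed the same opposite slopes at lower density. On Crick it had 13.7, 7.30 and 4.72 CPM per kb in parts 1 to 3, against 8.31, 26.1 and 45.4 in the single-barrier pair. On Watson it had 9.25, 13.3 and 21.6, against 19.4, 19.4 and 19.9. In part 3 the Crick strand held 571 Pol ε counts in the inverted pair, against 1171 in the shallower single-barrier library, a log2 ratio of -3.27 (-3.41 to -3.12). In part 1 the Crick Pol ε density was instead higher in the inverted pair (log2 ratio 0.72, 0.51 to 0.93), where the usage was lower because Pol δ had increased by more.

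**Figure D3:**
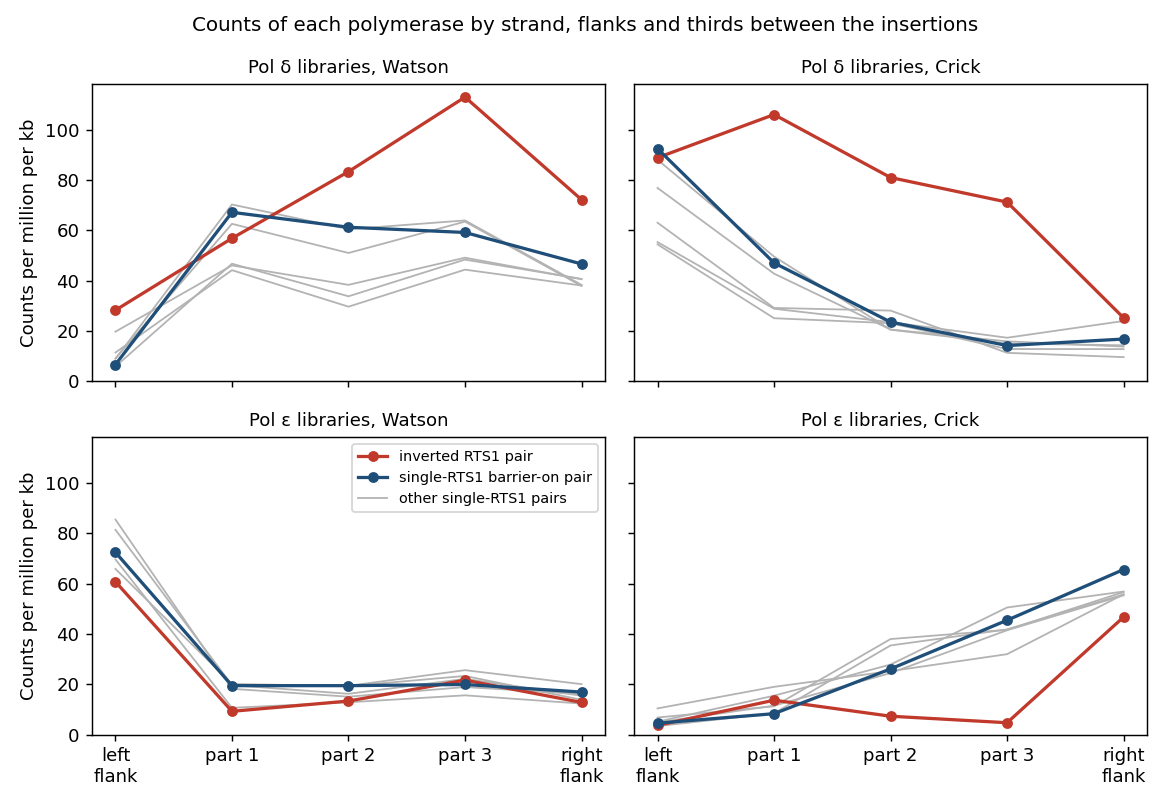
CPM per kb (vertical axis) in the Pol δ libraries (top row) and the Pol ε libraries (bottom row) on Watson (left) and Crick (right), in the left flank, the 3 equal parts between the copies and the right flank. The inverted pair is in red, the single-RTS1 *rnh201-RED* barrier-on pair in blue and the 5 other single-RTS1 pairs in grey. Pol δ of the inverted pair is highest on Watson in part 3 (112.9) and on Crick in part 1 (106.0).

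By gene, 10 protein-coding genes lie wholly between the copies, and 9 of them hold at least 3 bins. On the Crick strand the inverted usage over these 9 genes had a median of 9.02%, with the highest value over *sap61*, a gene for a splicing factor subunit (12.6%, 496 Pol ε and 3043 Pol δ counts), and the lowest over *pwp2* beside the right copy (5.75%, 134 and 1941 counts). The single-barrier pair had 30.1% over *sap61* and 78.7% over *pwp2*. On Watson the highest inverted usage was over *ubp15*, a ubiquitin hydrolase gene (16.9%, 1284 Pol ε and 5603 Pol δ counts), and the lowest over *ups2* (9.97%, 100 and 799 counts), against 26.7% and 20.2% in the single-barrier pair. All 9 genes had a lower usage in the inverted pair on both strands. The median difference over all 3000-bp windows of the genome was also below 0, at -0.90 points on Watson and -0.98 on Crick. The differences ran from -13.4 to -5.51 points on Watson. On Crick they had a median of -49.3 points, were smallest in size near the left copy and reached -72.9 points over *pwp2*. Some of these genes overlap and share bins.

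Outside the copies both pairs showed the strand pattern of canonical forks that approach the locus from either side. The strand rich in Pol ε had a lower Pol ε usage in the inverted pair, and the opposite strand was not higher. In the 2400 bp left of the left copy, Watson Pol ε usage was 68.3% (66.6 to 69.9) in the inverted pair and 91.6% (90.3 to 92.7) in the single-barrier pair, a difference of -23.3 points (-25.4 to -21.2). Here the inverted Pol δ library had 28.2 CPM per kb on Watson, against 6.66, a log2 ratio of 2.08 (1.87 to 2.31), while the Pol ε density was 60.7 against 72.4. On Crick the 2 pairs were close, with 3.95% (3.32 to 4.66) in the inverted pair and 4.68% (3.32 to 6.38) in the single-barrier pair, and the difference of -0.73 points had an interval that includes 0 (-2.54 to 0.80).

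In the 2400 bp right of the right copy, Crick Pol ε usage was 64.9% (63.0 to 66.8) in the inverted pair and 79.6% (77.6 to 81.5) in the single-barrier pair, a difference of -14.7 points (-17.4 to -11.9). Watson usage was 15.1% there, against 26.6%, a difference of -11.6 points (-15.4 to -7.88). On Watson the right flank of the inverted pair was level with part 3 on the other side of the copy (difference -1.03 points, -2.40 to 0.40). Both flank values of the inverted pair lay outside the range of the 6 single-barrier pairs, which was 78.7% to 93.6% for Watson at the left and 69.9% to 85.3% for Crick at the right. The nearest pair at both flanks was the one without the array. That pair also had a narrower range at the top, with 95% of its 3000-bp windows under 75.6% on Watson and 75.2% on Crick. The narrower range of the inverted libraries moves with this gap, and its part in it was not tested. In its own genome the left flank of the inverted pair was above 87.8% of Watson windows and the right flank above 79.6% of Crick windows, against 99.8% and 90.9% in the single-barrier pair.

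Farther out the flanks were read in 5-kb tiles. In the tile next to the left copy, Watson usage was 65.7% in the inverted pair and 83.4% in the single-barrier pair, and in the following one 58.1% and 61.1%. Over the 9 tiles from the second one outward the Watson differences lay between -5.60 and 1.81 points. To the right, Crick usage was 66.0% and 80.4% in the tile next to the right copy, and over all 10 tiles the Crick differences lay between -14.4 and 0.31 points with a median of -9.14, 9 of the 10 being lower in the inverted pair. Watson usage was lower too in 9 of these 10 tiles, with differences between -8.46 and 0.24 points and a median of -3.84. Against this single-barrier pair, the left difference was thus limited to the tile beside the barrier, among the tiles measured. The right one ran on over most of the 50 kb. The narrower range of the inverted libraries also bears on tiles rich in Pol ε, and its part here was not tested. For comparison, the central 95% of 3000-bp windows elsewhere in the genome ran from -17.0 to 8.78 points on Watson and -16.7 to 9.10 on Crick. Their medians were -0.86 and -0.93 points, so a small lower value was common over the genome.

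The borders were measured on the strand that carries Pol ε outside the copies. At the left border, Watson usage in the inverted pair was 68.3% in the outer plateau and 16.5% (15.0 to 18.1) in the inner one, each read from 600 to 3000 bp beside the insertion, a step of 51.8 points. In the single-barrier pair the plateaus were 91.6% and 24.0%, a step of 67.6 points. Relative to the outer level, 75.8% of the usage was lost in the inverted pair and 73.8% in the single-barrier pair. The other 5 single-barrier pairs lost between 61.9% and 86.2%, and the highest loss was that of the adh-*rtf1*+ pair. At the right border, Crick usage in the inverted pair was 64.9% outside and 5.75% (4.84 to 6.78) inside, a step of 59.2 points or 91.1% of the outer level. The single-barrier pairs have no *RTS1* there, and their steps at this site were between 0.81 and 7.13 points.

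The borders of the inverted pair were read from bins that lie largely within *RTS1*, where the copies are identical and reads cannot be given to one of them, so the position and width of each step mix reads of both copies. The plateaus outside and inside do not use these bins. The middle of the step, smoothed over 3 bins, lay 384 bp to the right of the left edge of the left insertion in the inverted pair, against 338 bp in the single-barrier pair and 279 to 441 bp over all 6 single-barrier pairs. The distance between 25% and 75% of the step was 404 bp in the inverted pair, against 468 bp in the single-barrier pair and 308 to 594 bp over the 6 pairs. The 279 and 594 bp were both of the pair without the array. No deletion of the native *RTS1* is listed for it, so its bins may mix reads too. Over the 5 pairs with the array the ranges were 338 to 441 bp and 308 to 555 bp. At the right border the middle lay 506 bp from the left edge of the right copy and the width was 445 bp. Widths of this size are close to what smoothing over 300-bp bins gives a step, so a narrower border could not be told from these. In single bins of the inverted pair at the left, Watson usage was 68.5% in the bin at 45 bp, 31.7% at 345 bp and 5.29% at 645 bp. At the right, Crick usage was 8.45% in the bin at 201 bp, 22.4% at 501 bp and 61.0% at 801 bp.

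**Figure D4:**
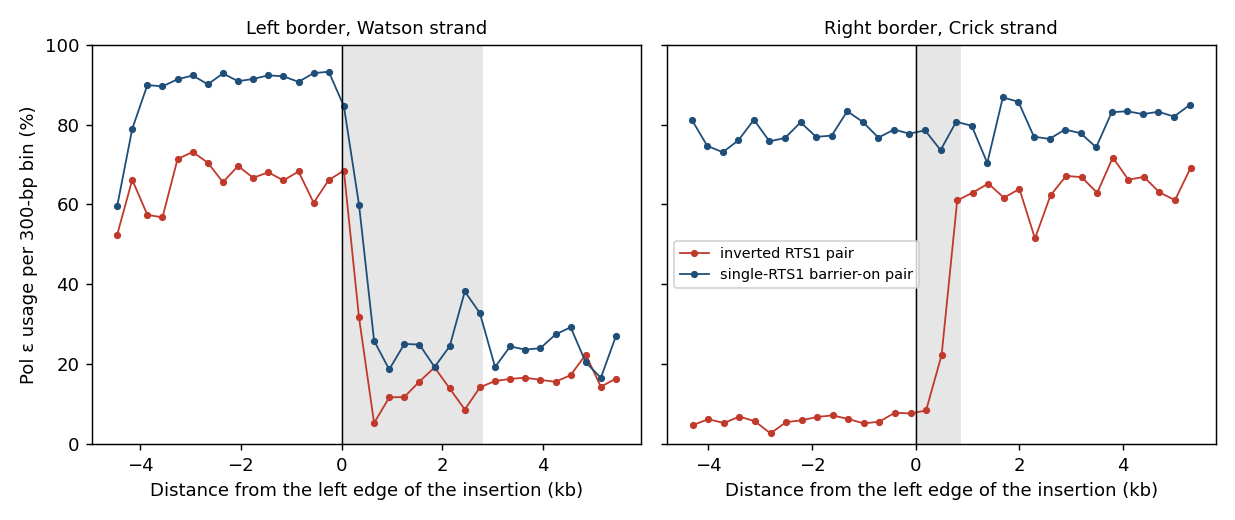
Pol ε usage (%, vertical axis) per 300-bp bin at the left border on Watson (left panel) and at the right border on Crick (right panel), against the distance in kb from the left edge of the insertion in the coordinates of the files. The inverted pair is in red and the single-RTS1 *rnh201-RED* barrier-on pair in blue, grey marks the inserted sequence of the inverted strains, and points are single bins. At the left both pairs drop within about 1 *RTS1* length, and at the right only the inverted pair has a step.

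Counts within *RTS1* carry the same limit over the 854 bp. In the inverted Pol δ library, the 2 bins that lie wholly in the left copy held 3396 Crick and 211 Watson counts, and the 2 bins wholly in the right copy 3273 Watson and 244 Crick counts. The highest of these bins reached 15.0 times the library's median bin of 141 at the left and 15.5 times at the right. Dividing reads between identical copies in opposite orientation gives such mirrored counts whichever copy they came from, so nothing is read from the right copy's strand. The single-barrier Pol δ library also had its excess on Crick at the left copy, with 1694 Crick and 316 Watson counts and a highest bin of 7.73 times its median. In the adh-*rtf1*+ pair the highest Crick bin reached 23.8 times the median. With the barrier on and off in the same background, it reached 7.73 and 4.36 times in *rnh201-RED*, 21.9 and 16.0 times in *rnh201-RED* *pku70-d*, 0.714 and 1.34 times in *rnh201-d*, and 1.84 and 1.30 times in *rnh201-d* *pku70-d*. It was thus higher with the barrier on in 3 of the 4 backgrounds, and the source of the excess was not tested.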

How the data were processed

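Pu-seq libraries of log-phase fission yeast were analysed, 1 Pol δ and 1 Pol ε library per strain. The deposited values were counts per 300-bp bin and strand, which the authors made from alkali-cut DNA by alignment with Bowtie2 to a genome that held the construct. Library totals ranged between 3304406 and 84420592 counts. The Pol δ library of the inverted pair was the one so titled, although its listed genotype names *cdc20*. Insertion sites were found by matching the study's primers to ASM294v3, and bins were shifted back by the added bases, which were set by the best match of count profiles. Pol ε usage was the share of the scaled Pol ε count in both scaled counts of a strand. Intervals are exact Clopper-Pearson (95%) for usage, square-and-add for differences and exact binomial for count ratios. Reads had no molecular identifiers, so they cover counting error only. With 1 library per strain and polymerase no test was made. Genome windows of 3000 bp needed at least 10 counts in each pair, and the threshold of 20 points and the equal windows serve as background. The named genes were those beside an insertion, those between the copies with the highest or lowest usage on a strand, and the altered genes. The result of 1 gene is not reported here. Scripts were tested on simulated data and used Python 3.11.15, pandas 2.3.3, scipy 1.17.1 and numpy 2.4.6. The members, windows and gene rule were chosen with earlier results of these data known.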

Additional observations from a re-analysis of the deposited data

How the results depend on the processing

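No paired analysis was possible because each strain and polymerase had 1 library, and for the same reason no replicate could be left out. Of 109 values under alternative settings, 47 stayed within the counting interval of the reported value or, for borders and counts, within 1 bin or 1.5 times, and 54 moved beyond it while keeping their direction. Another 8 changed sign. With the library's median bin as the scale, the differences between the copies were -7.11 points on Watson, -37.7 on Crick and 22.4 for mean Pol δ usage, and the log2 Pol δ ratios 0.35 and 1.52. Without bins far from the median, Crick usage differed by -48.2 points and mean Pol δ usage by 28.3. The log2 ratios were then 0.41 for Watson Pol δ, 2.13 for Crick Pol δ and -1.36 for Crick Pol ε. This filter left out bins above 4 or below 0.25 times a library's median bin, in each pair by its own counts. It thus removed bins for their low Pol ε counts and kept unlike positions in the 2 pairs, so these values do not show robustness. With 1500 bp left out beside insertions the Crick Pol δ ratio was 1.67.

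Values also moved with the pair taken for comparison. Watson usage between the copies differed by -1.79 points against the adh-*rtf1*+ pair, -11.2 against the *rnh201-RED* *pku70-d* pair, -13.8 against the *rnh201-d* pair, -17.9 against the *rnh201-d* *pku70-d* pair and -17.5 against the pair without the array. Crick usage differed by -45.4, -46.8, -50.9 and -43.0 points against the last 4 of these, in that order. Mean Pol δ usage differed by 20.3, 28.3, 30.3, 34.4 and 30.3 points against the 5 pairs in that order. Left-flank Watson usage differed by -20.4 points against the adh-*rtf1*+ pair, -19.6 and -19.4 against the *pku70-d* pairs (*rnh201-RED* first) and -10.4 against the pair without the array. Right-flank Crick usage differed by -20.3 points against the *rnh201-d* pair and -5.00 against the pair without the array.

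The log2 ratio of Watson Pol δ counts was 0.38, 0.51, 0.97, 1.09 and 0.92 against the 5 pairs in that order. That of Watson Pol ε counts was 0.19 against the adh-*rtf1*+ pair, a change of sign, and -0.50, -0.23 and -0.53 against the *rnh201-RED* *pku70-d* pair, the *rnh201-d* pair and the pair without the array. That of Crick Pol δ counts was 1.70, 1.94, 2.10 and 1.89 against the last 4 pairs in that order. That of Crick Pol ε counts was -1.89 and -1.81 against the *pku70-d* pairs and -1.56 against the pair without the array.

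Assigning polymerases by listed genotype turned the libraries round by construction. The differences between the copies became 61.2 points on Watson, 42.2 on Crick and -51.7 for mean Pol δ usage, the log2 ratios -2.07 and -1.72 for Watson and Crick Pol δ and 2.11 and 1.68 for Pol ε, and the flank differences -59.8 (left) and -44.6 (right). The left border was 755 bp wide with smoothing over 5 bins, and the borders 771 bp (left) and 833 bp (right) between levels of 10% and 90%. Genome windows past the threshold numbered 669 at 900 bp, 6 at 30 points and 37 with the median bin as the scale, against 74. The shallow single-barrier Pol ε library (3304406 counts) limits the precision of single bins. Except as named, the cause of these moves was not tested.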

Other observations

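Outside 800 to 930 kb of chromosome 2, the 3000-bp windows with the largest differences between the inverted and the single-barrier pair were smaller than that on the Crick strand between the copies. The 3 lowest were a Watson window at positions 2448001 to 2451000 of chromosome 3 (56.6% in the inverted pair and 86.0% in the single-barrier pair), a Crick window at 36001 to 39000 of chromosome 2, which covers SPBC1348.12 and *ght7*, a hexose transporter gene (29.5% and 57.3%), and a Watson window at 1821001 to 1824000 of chromosome 3 (62.4% and 89.5%). The 3 highest all lay in SPBPJ4664.02 on chromosome 2. They were the Crick windows at 693001 to 696000 (54.9% in the inverted pair and 19.4% in the single-barrier pair) and 690001 to 693000 (51.5% and 21.7%), and the Watson window at 690001 to 693000 (89.1% and 66.9%). This Watson window held 504 Pol δ and 4677 Pol ε counts in the inverted pair, against 764 and 379 in the single-barrier pair. The Watson window at 2448001 to 2451000 of chromosome 3 held 8300 and 12242, against 5432 and 8179. Copy number and read mapping in the listed windows were not tested. Positions are those of the deposited bins.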
